A study of Mus musculus with 12 samples.

Results

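The genes described here are 9 adhesion genes of neutrophils, followed in cells cultured with 1 of 3 conjugated bile acids or with PBS. They were chosen by name as rows of the deposited gene table: the integrin subunits Itgam, Itgal, Itgax, Itgb2, Itga4 and Itgb1, the selectin ligand Selplg, the hyaluronan receptor Cd44 and the integrin ligand Icam1. All 9 are among the 29737 genes of the table, and all 9 are among the 16761 that passed the filter on low counts. Bulk RNA sequencing was done on 12 samples of mouse bone marrow cells enriched for neutrophils on magnetic beads and labelled as Ly6G+ and wild type. All groups were cultured in RPMI 1640 with fetal bovine serum, and 3 samples each received PBS, taurocholic acid (TCA, 200 μM), glycocholic acid (GCA, 200 μM) or tauro-β-muricholic acid (Tβ-MCA, 10 μM) for 24 h. TCA and GCA are the taurine and glycine conjugates of the same bile acid, cholic acid, while Tβ-MCA is the taurine conjugate of a muricholic acid, a bile acid abundant in mice. The methods of the study give the mice as female C57BL/6 aged 4 to 6 weeks and give another dose for Tβ-MCA than the labels. Because of the labelled doses, Tβ-MCA and TCA are set side by side here and not tested against each other. The labels do not say that samples of a group came from separate mice, so p-values measure the spread between these samples, which may be technical.

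Neutrophils leave the blood in steps. P-selectin glycoprotein ligand 1, encoded by Selplg, and CD44 carry the sugars that selectins on the vessel wall hold, which lets the cell roll. Chemokine signals then switch integrins, which are pairs of an α and a β subunit, to a form that binds ligands such as ICAM-1 and VCAM-1, and the cell stops and crosses the wall. Itgb2 encodes β2 (CD18), the partner of αM (CD11b, Itgam) in Mac-1, of αL (CD11a, Itgal) in LFA-1 and of αX (CD11c, Itgax). Itgb1 encodes β1 (CD29), the partner of α4 (CD49d, Itga4) in VLA-4, a receptor for VCAM-1 and fibronectin.

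The α subunit genes of the β2 integrins lie together on mouse chromosome 7, in GRCm38 coordinates of the deposited table. Itgal spans chr7:127296260-127335138, Itgam chr7:128062640-128128160 and Itgax chr7:128129547-128150657, all on the plus strand, so that Itgax starts 1386 bases after Itgam ends. Itgb2 lies at chr10:77530252-77565708, Itga4 at chr2:79255426-79333123, Itgb1 at chr8:128685654-128733200 and Icam1 at chr9:21015985-21028817, on the plus strand. Cd44 at chr2:102811141-102901665 and Selplg at chr5:113818536-113832644 are on the minus strand. Itga4 shares 1124 exon bases, 8.04% of its exons, with the antisense gene Cerkl, which had a mean of 281.6 counts, and Icam1 shares 511 bases, 11.7%, with an antisense gene model at a mean of 44.5 counts. Itgam shares 347 bases, 5.44%, with a gene model on its own strand at a mean of 444.6 counts. The strand setting of the counting is not given in the sources used here, so reads of a gene and its antisense partner may not have been separated.

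Start regions of 6 of the 9 genes were found in RefSeq (GRCm38.p6). Of these, 3 are printed: those of the neighbours Itgam and Itgax, and that of Itga4. Each holds 250 bases before and 50 bases from the gene start, with matches to the motifs below in capitals.
Itgam, chr7:128062390-128062689, plus strand: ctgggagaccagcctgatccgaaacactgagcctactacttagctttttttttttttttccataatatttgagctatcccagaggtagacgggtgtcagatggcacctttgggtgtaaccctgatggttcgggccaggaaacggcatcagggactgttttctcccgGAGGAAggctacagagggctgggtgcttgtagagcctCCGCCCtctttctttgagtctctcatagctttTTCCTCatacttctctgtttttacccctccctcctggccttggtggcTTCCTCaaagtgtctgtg
Itgax, chr7:128129300-128129599, plus strand: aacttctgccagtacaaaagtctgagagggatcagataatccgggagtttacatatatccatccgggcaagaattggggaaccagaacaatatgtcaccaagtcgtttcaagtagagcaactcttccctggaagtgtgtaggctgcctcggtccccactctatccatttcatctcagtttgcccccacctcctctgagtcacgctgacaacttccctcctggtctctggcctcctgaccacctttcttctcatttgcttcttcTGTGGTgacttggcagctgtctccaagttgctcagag
Itga4, chr2:79255176-79255475, plus strand: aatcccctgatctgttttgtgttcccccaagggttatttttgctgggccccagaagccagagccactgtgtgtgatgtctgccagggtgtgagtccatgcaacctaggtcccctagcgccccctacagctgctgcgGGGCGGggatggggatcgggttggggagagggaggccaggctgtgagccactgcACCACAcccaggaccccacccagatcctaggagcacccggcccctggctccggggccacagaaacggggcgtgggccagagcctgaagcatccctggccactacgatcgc
Both strands were searched for GAGGAA, a core bound by PU.1 and other ETS factors, for TGTGGT, a RUNX core, for GGGCGG, the GC box of Sp1, and for the NF-kB consensus. Itgam held 3 matches to GAGGAA, at positions -84, -15 and 32 with the first base of the gene as 0, and 1 to the GC box at -47. Itgax held 1 match to the RUNX core, at 13, and Itga4 held 1 RUNX match at -60 and 1 GC box at -114. None of the 3 held the NF-kB consensus. Over all 32851 RefSeq start regions of this length, 28.3% held GAGGAA, 16.8% TGTGGT, 35.7% GGGCGG and 4.51% the NF-kB consensus. Of the regions not printed, Cd44 held 2 matches to GAGGAA and 1 to the GC box, and Itgb1 held 1 of each. Icam1 held 0 to GAGGAA and 2 to the GC box. The matches describe the letters only, and a link to the levels was not tested.

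The libraries held 32757389 to 41375925 counts, so that 3 counts, the floor used here, correspond to 0.0725 to 0.0931 CPM, which are counts scaled to library size with TMM factors. Summed CPM of 14 neutrophil markers ran from 49700 to 61380 with PBS and from 39990 to 45310 with Tβ-MCA. The calprotectin gene S100a9, a defining transcript of neutrophils, was at 17450 to 25500 CPM, while Ly6g, the gene of the labelled surface marker, was low, at 7.54 to 21.4 CPM. T and NK cell markers summed to at most 3.03 CPM, with Klrb1c under the floor in every sample, and erythroid markers to at most 3.22 CPM. Tβ-MCA replicate 5 stood apart from the other Tβ-MCA libraries: 12 monocyte and macrophage markers summed to 435.2 CPM in it and to 224.8 and 261.0 CPM in replicates 3 and 4, beside 434.5 to 518.3 CPM with PBS. The chemokine receptor gene Ccr2 was at 29.2 CPM in replicate 5 and at 2.03 and 2.70 CPM in the other two. The counts of calls with Tβ-MCA, and the log2 fold changes of the 9 genes, are therefore given with and without replicate 5. Leaving it out raised the calls over all genes from 1278 to 3076. Other libraries differed within their group too: PBS replicate 3 was at 61380 CPM of the neutrophil markers, beside 51370 and 49700 CPM in PBS replicates 5 and 6. In bulk RNA, fewer cells of a type and less RNA per cell cannot be told apart.

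The 9 genes covered a wide range of levels, and the β2 integrin Mac-1 stood at the top. Levels of different genes are compared in deposited RPKM, which are reads scaled to gene length and library size. With PBS, Itgam was at 572.2 ± 42.9 RPKM (SD, n = 3 here and below) and Itgb2 at 499.6 ± 11.5, which placed them at 66 and 78 among the 16761 genes. Selplg followed at 131.5 ± 13.3 RPKM and Cd44 at 80.8 ± 1.61 RPKM. Itgal was at 41.5 ± 3.82 RPKM and Itgb1 at 37.5 ± 1.10 RPKM, and their samples overlapped in every group. Icam1 was at 11.8 ± 0.548 RPKM, Itga4 at 9.53 ± 0.428 RPKM and Itgax last at 1.01 ± 0.262 RPKM, at place 11798. Itgam, the immediate neighbour of Itgax on the chromosome, was thus among the most abundant transcripts and Itgax among the scarce ones.

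**Figure D1:**
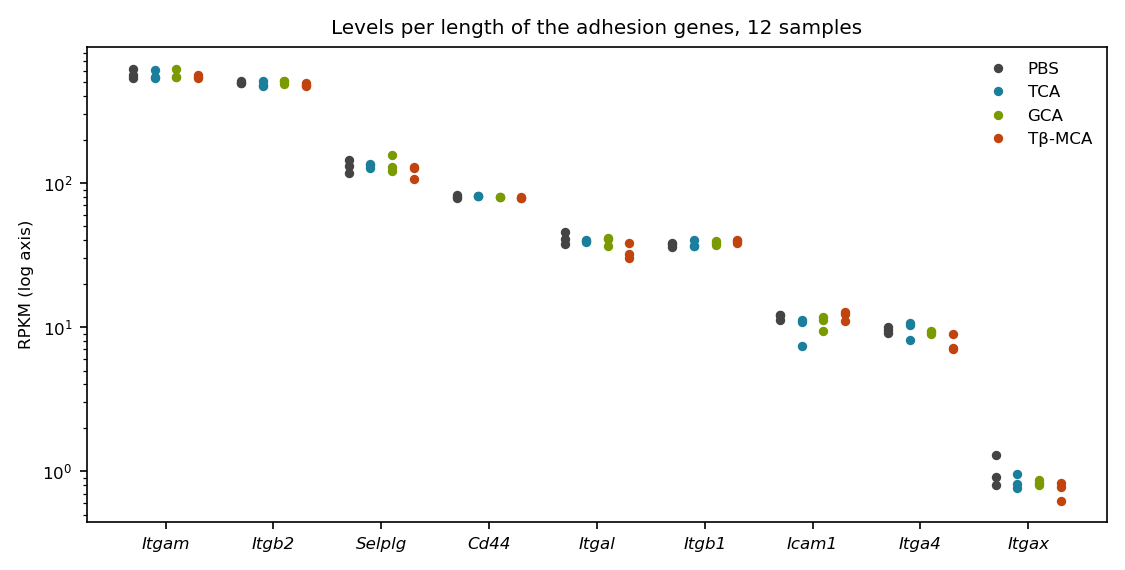
Deposited RPKM of the 9 adhesion genes in the 12 samples, on a log axis, with genes in the order of their PBS mean and 1 point per sample coloured by treatment. Itgam and Itgb2 lie highest and Itgax lowest in every group, and the points of Itgal and Itgb1 overlap.

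The order was the same with TCA and GCA. With Tβ-MCA, Itgb1 at 39.3 ± 0.929 RPKM came before Itgal at 33.8 ± 4.33 RPKM, although the samples still overlapped. In single samples Itgal was above Itgb1 in 8 of 12, and Icam1 was above Itga4 in 11 of 12. The samples of Icam1 and Itga4 overlapped with TCA and with GCA but not with PBS or Tβ-MCA. Every other neighbouring pair in the order was separated in every group.

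With Tβ-MCA, the transcript of the LFA-1 subunit αL was lower than with PBS, and that of the VLA-4 subunit α4 had a log2 fold change of like size just outside the threshold. Itgal was the only one of the 9 genes called at an adjusted p under 0.05 (edgeR quasi-likelihood test, Benjamini-Hochberg over 16761 genes). This 1 of 9 stands beside 7.62% of all tested genes called in either direction and 3.18% called lower. Among all genes 745 were called higher and 533 lower, a split that became 1013 and 395 with plain library totals in place of TMM. The genes of the subunits that carry most of the transcript, Itgam and Itgb2, and those of Itgb1, Selplg, Cd44 and Icam1 had log2 fold changes between -0.17 and 0.02, and none was called. No gene of the 9 reached the thresholds named in the study, an unadjusted p under 0.05 with a fold change of at least 2, which 2.95% of all genes met.

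Itgal was at 306.8, 271.4 and 250.3 CPM in PBS replicates 3, 5 and 6, against 207.2, 193.8 and 250.4 CPM in replicates 3, 4 and 5 of Tβ-MCA. Tβ-MCA replicates 3 and 4 lay below every PBS sample, while replicate 5 met the lowest of them, so the groups overlapped by this 1 sample. The fitted log2 fold change was -0.35 (SE 0.0964, edgeR adjusted p = 0.0424), a ratio of 0.786 with a 95% interval of 0.682 to 0.907. Without Tβ-MCA replicate 5 it was -0.46 (SE 0.0895, edgeR adjusted p = 0.0022). The call was lost when any other single library of these 2 groups was left out, with log2 fold changes of -0.26 without PBS replicate 3, -0.36 without PBS replicate 5, -0.41 without PBS replicate 6, -0.31 without Tβ-MCA replicate 3 and -0.27 without Tβ-MCA replicate 4, and edgeR adjusted p from 0.0522 to 0.1945. It was also lost in a fit restricted to these 2 groups (edgeR adjusted p = 0.1035) and in limma on log2(RPKM + 1) (adjusted p = 0.0726).

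Itga4 was at 136.4, 128.4 and 139.6 CPM with PBS and at 98.9, 96.2 and 124.3 CPM with Tβ-MCA. All 3 Tβ-MCA samples lay below all PBS samples, with replicate 5 nearest to them. The log2 fold change was -0.34 (SE 0.0997, edgeR adjusted p = 0.0505), and without Tβ-MCA replicate 5 it was -0.47 (SE 0.0893, edgeR adjusted p = 0.0020). Without that library 2 of the 9, Itgal and Itga4, were called lower, beside 9.44% of all genes tested. Itga4 passed the threshold in 6 of 16 alternative analyses and Itgal in 9 of 16, and both were lower than with PBS in all 16.

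Itgax, the marker gene of dendritic cells and some macrophages, rested on few counts, 98 to 215 per library. It was at 3.96, 6.33 and 4.42 CPM with PBS and at 2.93, 3.62 and 3.94 CPM with Tβ-MCA. The groups did not overlap, but by a margin of 3.94 to 3.96 CPM. The log2 fold change of -0.48 (SE 0.181) did not pass (edgeR adjusted p = 0.110), and without PBS replicate 5, the highest library, it was -0.26. Without Tβ-MCA replicate 5 it was -0.58 (edgeR adjusted p = 0.0616).

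In CPM, samples of Tβ-MCA lay wholly below those of PBS for 4 of the 9 genes, beside 12.8% of all genes tested. These were Itga4, Itgax, Itgb2 and Cd44. In deposited RPKM, which carry no TMM factor, only Itga4 of these stayed apart, at most 9.01 with Tβ-MCA and at least 9.10 with PBS. Tβ-MCA replicate 5 was at 494.3 RPKM for Itgb2 and 0.830 for Itgax, above PBS minima of 492.1 and 0.805. For Cd44, Tβ-MCA replicate 3 was at 79.95 RPKM, above a PBS minimum of 79.39. Itgb2 was at 1603, 1516 and 1512 CPM with PBS and at 1417, 1413 and 1488 CPM with Tβ-MCA, a log2 fold change of -0.10 (SE 0.0638, edgeR adjusted p = 0.352). Cd44 varied least of the 9, from 520.4 to 567.5 CPM over the 12 samples, and its log2 fold change was -0.07 (SE 0.0518, edgeR adjusted p = 0.428). At an unadjusted p under 0.05 stood 3 of the 9, Itgal, Itga4 and Itgax, beside 24.9% of all genes.

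**Figure D2:**
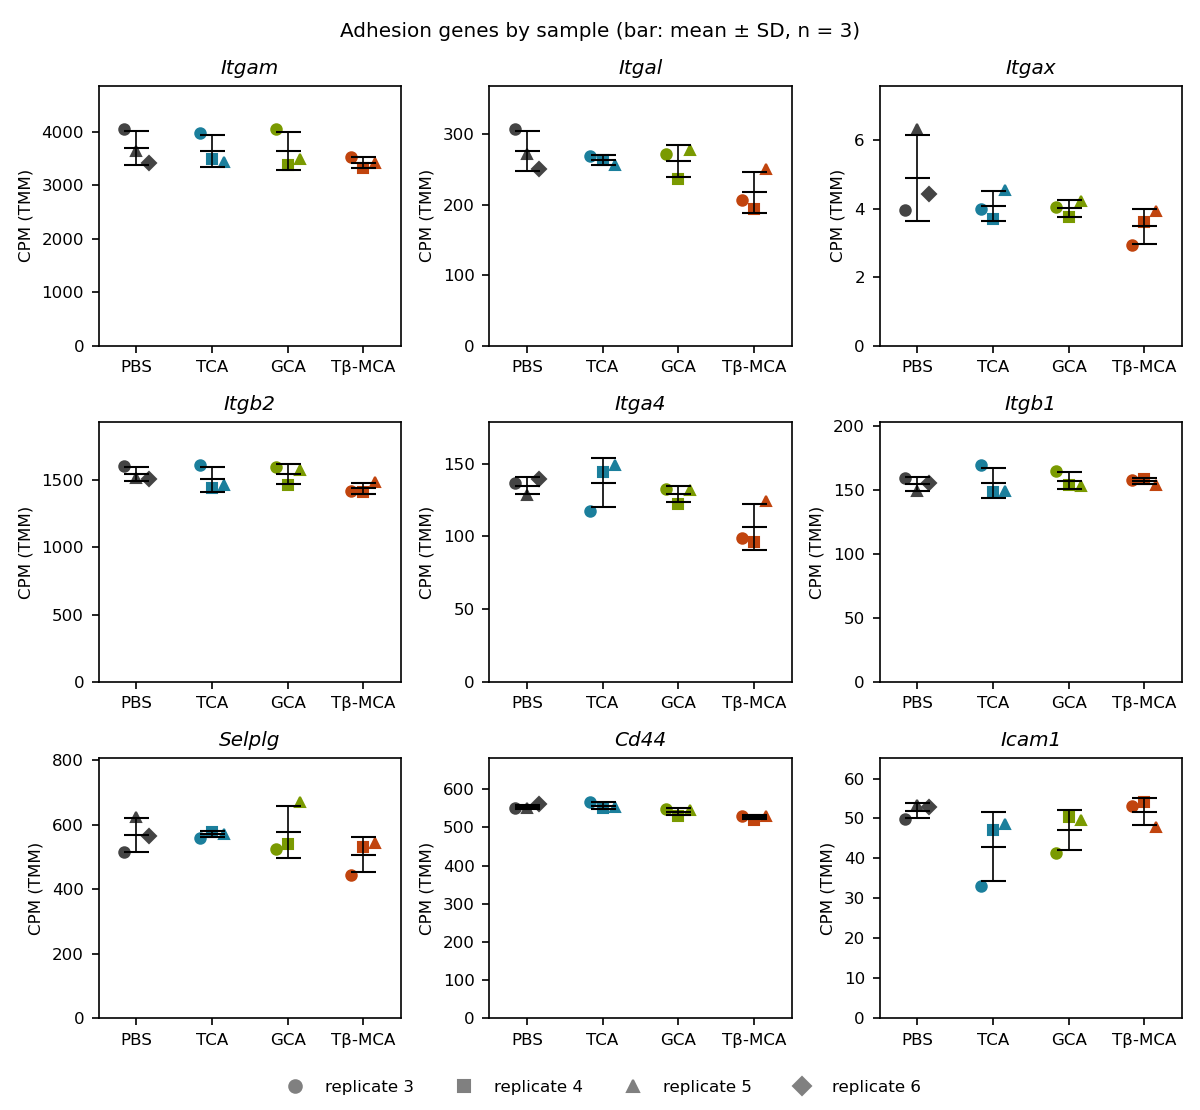
CPM (TMM) of the 9 genes, with 1 point per sample, the point shape giving the replicate number and the bars the mean ± SD of 3 samples. Tβ-MCA replicates 3 and 4 hold the lowest values of Itgal and Itga4, and replicate 5 lies at or near the PBS samples.

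The remaining genes of the set overlapped between Tβ-MCA and PBS. Itgam was at 4042, 3629 and 3415 CPM with PBS and at 3521, 3317 and 3420 CPM with Tβ-MCA, a log2 fold change of -0.11 (SE 0.0840, edgeR adjusted p = 0.440). Selplg was at 516.0, 623.4 and 564.9 CPM with PBS and at 444.6, 530.0 and 544.8 CPM with Tβ-MCA, a log2 fold change of -0.17 (SE 0.0993, edgeR adjusted p = 0.323). The 95% interval for Itgam ran from a ratio of 0.818 to 1.05 and that for Selplg from 0.770 to 1.03, so both included no change. The smallest change that could be detected here was not tested. Itgb1, the partner of Itga4, was at 149.1 to 159.6 CPM with PBS and at 154.0 to 158.7 CPM with Tβ-MCA, with a ratio of 1.01 and a 95% interval of 0.923 to 1.11. Icam1 was at 49.7 to 53.3 CPM with PBS and at 47.8 to 54.2 CPM with Tβ-MCA. Its ratio was 0.995, with a 95% interval of 0.831 to 1.19, and the sign of its small log2 fold change turned from -0.01 to 0.04 with plain library totals. Without Tβ-MCA replicate 5 the log2 fold changes of these genes and of the 2 described just before were -0.11 for Itgam, -0.22 for Selplg, 0.03 for Itgb1, 0.05 for Icam1, -0.13 for Itgb2 and -0.08 for Cd44, and none was called (edgeR adjusted p from 0.188 to 0.864).

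**Figure D3:**
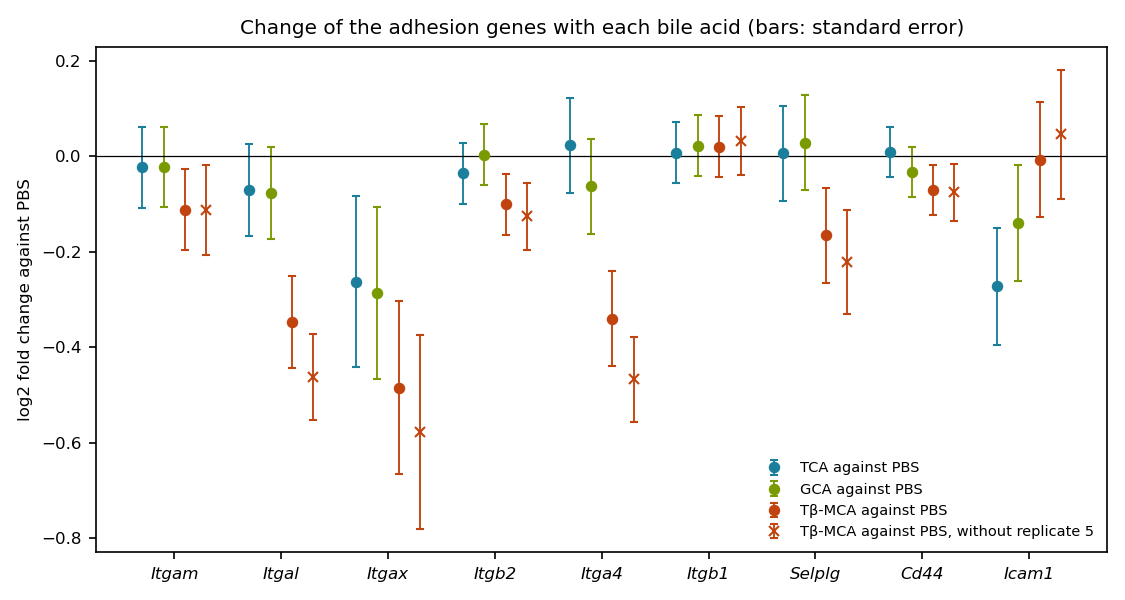
Log2 fold change against PBS of the 9 genes with TCA, GCA and Tβ-MCA, and with Tβ-MCA when replicate 5 is left out (crosses), with bars of 1 standard error. With Tβ-MCA the values of Itgal and Itga4 are -0.35 and -0.34, and the 3 comparisons share the PBS samples.

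Ratios within a sample do not depend on the scaling of libraries, and 6 were computed, without a test, since 3 samples against 3 cannot reach an exact permutation p below 0.10. The RPKM of the α subunits that pair with β2, Itgam, Itgal, Itgax and also Itgad, were summed in each sample. Of this sum, Itgal made up 6.85, 6.75 and 6.63% with PBS and 5.40, 5.36 and 6.63% with Tβ-MCA. Replicate 5 thus lay beside the lowest PBS sample in this share as well. Per 100 RPKM of Itgb1, Itga4 was at 24.95 to 26.2 RPKM with PBS and at 18.3, 17.7 and 23.6 RPKM in Tβ-MCA replicates 3, 4 and 5, so that the α4 transcript was lower relative to its partner in all 3. Per 100 RPKM of Itgb2, Itgam was at 108.1 to 120.7 RPKM with PBS and at 110.0 to 118.9 RPKM with Tβ-MCA, and the groups overlapped. The other 3 ratios overlapped too.

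Summed markers of monocytes and of eosinophils were lowest in the same libraries as Itgal and Itga4, Tβ-MCA replicates 3 and 4. All 12 monocyte and macrophage markers had a log2 fold change below 0 with Tβ-MCA, with a median of -0.76, none of them called, and 9 were called lower without replicate 5. All 12 were above the floor of 3 counts in at least 1 sample. Their summed level ran from 363.8 to 535.4 CPM with TCA and from 400.5 to 521.0 CPM with GCA. The 6 eosinophil markers summed to 149.0 to 258.6 CPM with PBS and to 80.2, 56.8 and 132.6 CPM with Tβ-MCA, with 1 called lower, or 3 without replicate 5. Of the 14 neutrophil markers 4 were called lower, Ly6g and the granule and calprotectin genes Lcn2, Camp and S100a8, and without replicate 5, 10 were. Of 7 B cell markers, summed to 11.2 to 18.5 CPM with PBS and 8.48 to 10.9 CPM with Tβ-MCA, 1 was called lower, with and without replicate 5. The 8 dendritic cell markers summed to 43.3 to 49.5 CPM with PBS and to 30.5 to 43.5 CPM with Tβ-MCA. Of the 6 tested none was called, with or without replicate 5. Beside these counts of marker calls, 3.18% of all genes tested were called lower, and 9.44% without replicate 5. In TCA the order differed by gene. TCA replicate 3, lowest of its group for the monocyte markers at 363.8 CPM, was lowest for Itga4. For Itgal it was highest in CPM but not in RPKM. GCA replicates 3, 4 and 5 were at 400.5, 405.2 and 521.0 CPM of these markers and at 132.5, 122.5 and 132.1 CPM of Itga4. Replicates 3 and 5 were thus nearly equal for Itga4, and in RPKM replicate 5 was the higher, at 9.36 against 9.32. The part of these cells in the values of Itgal and Itga4 was not tested.

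**Figure D4:**
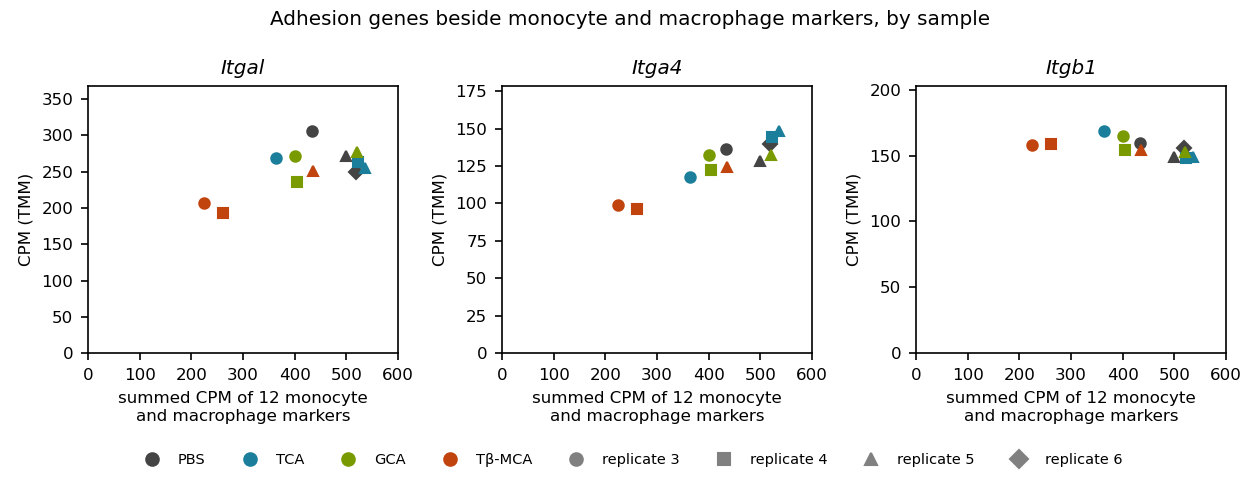
CPM of Itgal, Itga4 and Itgb1 against the summed CPM of 12 monocyte and macrophage markers, with 1 point per sample, coloured by treatment and shaped by replicate number. Tβ-MCA replicates 3 and 4, at 224.8 and 261.0 CPM of the markers, also hold the lowest Itgal and Itga4, while Itgb1 lies between 148.4 and 169.0 CPM in all 12 samples.

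With TCA and with GCA, no difference of the 9 genes passed the test. None of the 16761 genes tested was called with TCA, with GCA or between GCA and TCA (0% in each, edgeR), while edgeR without the filter on low counts called 37, 36 and 42 of 29737, none of them among the 9. At an unadjusted p under 0.05 there were 546, 591 and 412 genes (3.26, 3.53 and 2.46%), and DESeq2 called 1, 0 and 0. Itgal was at 269.5, 263.3 and 255.5 CPM with TCA and at 271.8, 235.6 and 277.8 CPM with GCA, both overlapping PBS. Itga4 was at 117.5, 144.5 and 148.7 CPM with TCA and at 132.5, 122.5 and 132.1 CPM with GCA. Itgax was at 3.70 to 4.55 CPM with TCA and 3.75 to 4.23 CPM with GCA, overlapping the PBS samples at 3.96 to 6.33 CPM.

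The lowest p with TCA belonged to Icam1, which encodes a ligand of Mac-1 and LFA-1. It was at 33.03, 47.1 and 48.7 CPM with TCA against 49.7, 53.3 and 52.8 CPM with PBS. The groups did not overlap in CPM, as for 4.76% of all genes in this direction. In RPKM they overlapped, with TCA replicate 5 at 11.18 and PBS replicate 3 at 11.14. The log2 fold change was -0.27 (SE 0.122), which did not pass (edgeR unadjusted p = 0.0416, adjusted p = 0.9999), and without TCA replicate 3 it was -0.12. With GCA, Icam1 was at 41.4, 50.3 and 49.6 CPM, a log2 fold change of -0.14 (SE 0.122). Replicate 3 was the lowest sample in both bile acid groups. Cd44 with GCA, at 547.5, 530.3 and 546.3 CPM, lay just below all PBS samples, whose lowest value was 549.9 CPM, and below all TCA samples, but by a log2 fold change of only -0.03 (SE 0.0518) against PBS. Such a separation in CPM was seen for 4.83% of all genes against PBS and for 4.19% against TCA. In RPKM, Cd44 with GCA overlapped PBS, with GCA replicate 4 at 79.89 and PBS replicate 3 at 79.39.

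GCA and TCA differ in the amino acid joined to cholic acid, glycine or taurine, and were given at the same dose, so all 9 genes were compared directly in this 1 pair of compounds. None passed the test (edgeR adjusted p = 0.9998 for each, over all genes). The 95% intervals of the ratio of GCA to TCA were narrowest for Cd44, 0.9004 to 1.05, and Itgb1, 0.920 to 1.11, and widest for Itgax, 0.753 to 1.28. For Itgal the interval was 0.864 to 1.15, for Itga4 0.813 to 1.09, for Icam1 0.915 to 1.31, for Itgam 0.885 to 1.13, for Itgb2 0.935 to 1.13 and for Selplg 0.877 to 1.18. Each of these intervals included no change. The smallest difference that 3 samples a group could detect was not tested. Against PBS, Itgal had a log2 fold change of -0.07 with TCA (SE 0.0962) and of -0.35 with Tβ-MCA (SE 0.0964), and Itga4 of 0.02 (SE 0.0994) and -0.34 (SE 0.0997). The doses differ and both comparisons use the same PBS samples, so the 2 compounds were not compared further.

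The wider adhesion pathway was followed in 5 lists of 113 genes, of which 93 were tested: other integrin subunits, integrin activation, selectins and synthesis of their ligands, other adhesion molecules, and partners and shedding of CD44. With Tβ-MCA 3 were called higher and 10 lower, 14.0% beside 7.62% of all genes, and their median log2 fold change was -0.14 beside 0.00 for all genes. Without Tβ-MCA replicate 5, 7 were higher and 26 lower, 35.5% beside 18.0% of all genes. The lists were chosen with earlier results of these data known, so these shares are a description and not a test. Other left-out libraries removed the calls. Without PBS replicate 3, PBS replicate 5, Tβ-MCA replicate 3 or Tβ-MCA replicate 4, no gene of the whole table was called. The same held with only these 2 groups fitted, so every pathway call described below was lost in those settings. With TCA, with GCA and between GCA and TCA none of the 93 was called (edgeR), and 1, 0 and 1 had an unadjusted p under 0.05.

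Of 30 genes that couple integrins to the cell, 3 fell and 0 rose with Tβ-MCA, beside 7.62% of all genes called and 3.18% called lower, and without replicate 5, 9 fell and 2 rose, beside 18.0% and 9.44%. Fgr, a Src family kinase that signals from β2 integrins, fell by 0.33 on the log2 scale (SE 0.0825, edgeR adjusted p = 0.0317), and by 0.45 without replicate 5. It was at 287.2 to 289.9 CPM with PBS and at 209.5, 212.4 and 268.6 CPM with Tβ-MCA. Rassf5, which encodes the Rap1 effector RAPL that binds αL, was at 394.6 to 421.8 CPM with PBS and at 333.1, 336.5 and 357.0 CPM with Tβ-MCA, a fall by 0.25 (SE 0.0664, edgeR adjusted p = 0.0340), and by 0.29 without replicate 5. The adaptors that open integrins did not pass: kindlin-3 (Fermt3) had a log2 fold change of -0.27 (edgeR adjusted p = 0.0687) and talin (Tln1) of -0.27 (edgeR adjusted p = 0.0937). In all these genes replicate 5 was the Tβ-MCA sample nearest to PBS.

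Of 13 other integrin subunits tested, 1 fell and 0 rose, beside 7.62% of all genes called and 3.18% called lower. Without replicate 5, 3 fell and 1 rose, beside 18.0% and 9.44%. Itgb7, whose product β7 is the second partner of α4, was at 28.6 to 32.5 CPM with PBS and at 18.8, 17.04 and 25.1 CPM with Tβ-MCA (log2 fold change -0.57, SE 0.147, edgeR adjusted p = 0.0350, and -0.75 without replicate 5). Vcam1, the ligand of VLA-4, was at 12.3 to 14.1 CPM with PBS and at 4.19, 4.92 and 9.23 CPM with Tβ-MCA. Its log2 fold change of -1.14 (SE 0.248, edgeR adjusted p = 0.0266) was the largest fall among the pathway genes called, and without replicate 5 it was -1.57. Sirpa, the receptor for CD47, rose by 0.26 (SE 0.0631, edgeR adjusted p = 0.0290; 0.30 without replicate 5), from 320.6 to 337.7 CPM with PBS to 395.4, 411.3 and 371.6 CPM with Tβ-MCA. With Alcam, a ligand of CD6, which rose by 0.21 (edgeR adjusted p = 0.0452), these were the 3 of 14 other adhesion molecules called, beside 7.62% of all genes. Without replicate 5, 2 rose and 3 fell, beside 18.0% of all genes called and 9.44% called lower.

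Among 17 genes of selectins and of the synthesis of their ligands, 1 rose and 1 fell, beside 7.62% of all genes called. Without replicate 5, 1 rose and 4 fell, beside 18.0% of all genes. Selp, the P-selectin of platelets and endothelium, was at 3.62 to 4.19 CPM with PBS and at 1.56, 2.24 and 2.81 CPM with Tβ-MCA, a log2 fold change of -0.82 (SE 0.228, edgeR adjusted p = 0.0416), and of -1.03 without replicate 5. Fut7, the fucosyltransferase that completes selectin ligands, had a log2 fold change of -0.47 that did not pass (edgeR adjusted p = 0.234).

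Around CD44, 4 of 19 genes fell and 0 rose, beside 7.62% of all genes called and 3.18% called lower. Without replicate 5, 7 fell and 1 rose, beside 18.0% and 9.44%. Spp1, whose product osteopontin binds CD44 and α4 and αv integrins, fell by 0.62 (SE 0.173, edgeR adjusted p = 0.0414; by 0.89 without replicate 5), from 8.27 to 10.1 CPM with PBS to 4.73, 4.92 and 7.66 CPM. Mmp9, a gelatinase of neutrophil granules that docks on CD44, was at 631.5 to 763.5 CPM with PBS and at 361.1, 381.3 and 577.9 CPM with Tβ-MCA, a fall by 0.63 (edgeR adjusted p = 0.0481). Rhbdf2, which encodes iRhom2, the partner of the sheddase ADAM17, fell by 0.37 (SE 0.0879, edgeR adjusted p = 0.0277), and by 0.47 without replicate 5. Cd74, the invariant chain that forms a receptor with CD44 and is abundant in antigen presenting cells, fell by 0.91 (edgeR adjusted p = 0.0455), with 4.61, 7.67 and 11.6 CPM against 13.5 to 15.9 CPM with PBS. Alcam, Cd74, Mmp9, Fermt3, Tln1 and Fut7 were named after their values were seen.

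**Figure D5:**
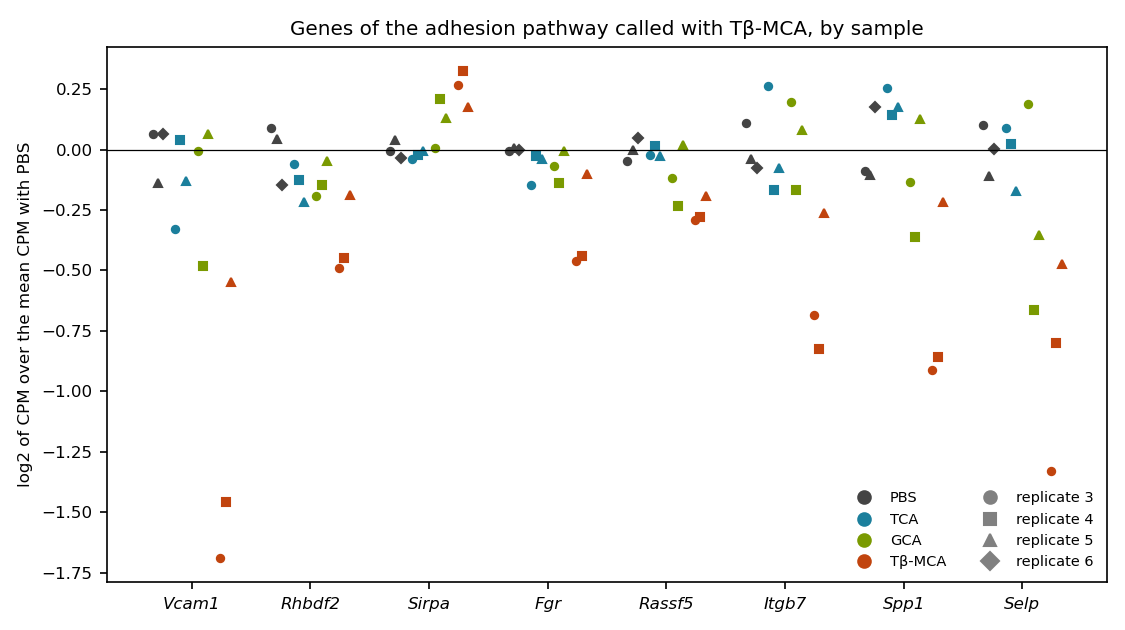
Log2 of the CPM over the mean CPM with PBS, for 8 pathway genes called with Tβ-MCA, with 1 point per sample coloured by treatment and shaped by replicate number. Sirpa lies above 0 with Tβ-MCA and the other genes below, and Tβ-MCA replicate 5 is the nearest to 0 of its group for each gene.

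With the other bile acids the lowest p among the pathway genes belonged to genes that did not pass. With TCA these included Itgav (log2 fold change 0.23, SE 0.0900), Dab2 (0.78, SE 0.369) and Cd24a (0.14, SE 0.0677), all with an edgeR adjusted p of 0.9999. With GCA they were Adam8 (0.13), Hyal1 (0.29), Sirpa (0.12) and Alcam (0.11), and between GCA and TCA Sirpa (0.14), Itgav (-0.19), Cd24a (-0.14) and Lyn (-0.11).

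The genes whose log2 CPM ran most like each of the 9 over the 12 samples were found among 13222 others by Pearson's r, given as a description, since all points share libraries and treatments. Itga4 ran most like Cx3cr1 (r = 0.975), Adgre4 (0.972) and Manf (0.971), and the first of these, the fractalkine receptor gene, is among the monocyte markers listed. Itgal ran most like Map7d1, Gm45234 and Atn1 (r = 0.985 for each). Itgam ran most like Cdk11b (0.981), Arhgap30 (0.968) and Golim4 (0.967), and Selplg most like Coro1a (0.952), Smarce1 (0.941) and Ell (0.939). For Itgb1 these were Stard4 (0.954), Gm35339 (0.943) and the integrin gene Itga2b (0.925), and for Icam1 Lmf1 (0.945), Gm20412 (0.938) and Gm10275 (0.922). For Itgb2 they were a gene whose name the table holds in an altered, date-like form (0.963), Vcpkmt (0.952) and Pmvk (0.947). For Itgax they were Samd11 (0.925), Anp32a (0.923) and Rps25 (0.921), and for Cd44 Gm15350 (0.937), Dhrs7 (0.929) and Cep170 (0.924). Among the 9 themselves, r was highest between Itgb2 and Itgal (0.811), Itgb2 and Itgam (0.801) and Itgal and Itga4 (0.778), while Itga4 and its partner Itgb1 were at -0.409.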

How the data were processed

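RNA was sequenced from 12 cultures of bead-enriched mouse bone marrow cells, 3 per treatment, with a stranded mRNA kit. The authors trimmed reads with Trimmomatic (0.36) and counted them with featureCounts, and the submitters' processing notes name STAR 2.5.3a, Subread 1.5.1 and GRCm38. The deposited table holds raw counts per gene and RPKM computed by the authors from those counts, which a recomputation matched to within a relative 1.3e-06. In the table GCA columns are named GA, as the design text of the series writes that acid. CPM with TMM factors were computed here. Counts were tested with edgeR 4.0.16 (R 4.3.3): robust quasi-likelihood fit over all 12 samples by group, filterByExpr, Benjamini-Hochberg over 16761 genes, a call being an adjusted p under 0.05. The edgeR, DESeq2 and limma steps were tested on simulated data with known changes. Alternatives were DESeq2 1.42.0, limma 3.58.1 on log2(RPKM + 1), other scaling and filters, left-out libraries and a replicate block. The library totals of 32757389 to 41375925 set the counting precision, and 3 counts per library served as the floor. Intervals are 95%. All 9 genes were named, and of the pathway lists up to 10 genes per comparison, by lowest p among those called without overlap of the groups, or otherwise the 4 of lowest p, a few of which are not reported here; for likeness, the 3 genes of highest r with a mean of at least 1 CPM. The genes and lists were chosen with earlier results of these data known. Promoters came from RefSeq (GRCm38.p6).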

Additional observations from a re-analysis of the deposited data

How the results depend on the processing

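Of 549 values recomputed under the alternatives, 536 kept their direction and side of the threshold, 7 calls were lost, 6 were gained and none of the called values reversed, while 45 uncalled log2 fold changes, all small, changed sign. With Tβ-MCA, 2 of the 9 genes, Itgal and Itga4, were called with at least 10 counts in every sample, with DESeq2 size factors, with DESeq2, with no low-count filter and without Tβ-MCA replicate 5 with the replicate block (added after seeing the data), and 0 with limma on RPKM, with only the 2 groups fitted and at the study's thresholds. Leaving out 1 library gave 0 to 2. Over all genes, DESeq2 called 2079, no filter 2406, the fit of only the 2 groups 0 (3485 at an unadjusted p under 0.05), and replicate 5 left out with the block 3548, and leaving out 1 library gave 0 to 3076. With TCA, DESeq2 called 1, no filter 37 and the replicate block 3 genes, and no filter called 36 with GCA and 42 between GCA and TCA. The order of the levels differed in 2 genes with Tβ-MCA. The cause of these differences was not tested. Samples with the same replicate number deviated together weakly, with a mean r of 0.189 over 15 pairs (0.0597 to 0.326). Over 39 pairs of different numbers the mean was -0.0716. Pairs of number 3 ran from 0.197 to 0.326. The labels do not say what the numbers mark, and they were not taken as pairs. With the block 1498 genes and 1 of the 9, Itgal (edgeR adjusted p = 0.0281), were called with Tβ-MCA. Itga4 was not (edgeR adjusted p = 0.1127). Itgam and Selplg had an unadjusted p of 0.0387 and 0.0356 with the block (edgeR), against 0.202 and 0.117 without it. Neither was called (edgeR adjusted p = 0.169 and 0.161). Over all 16761 genes the block gave 771 higher and 727 lower. The lists had 6 of 30 lower for integrin activation, and 2 lower and 1 higher of 19 around CD44. Selectin genes had 2 lower and 1 higher of 17, other adhesion molecules 2 lower and 1 higher of 14, and other integrin subunits 1 lower of 13. Of the markers, 9 of 14 for neutrophils, 2 of 6 for eosinophils, 1 of 12 for monocytes and macrophages and 1 of 6 for basophils and mast cells were lower. In the main fit, with 3 samples a group, the intervals of Selplg and Itgam included no change.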

Other observations

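Libraries numbered 3 held a shared position for several of the 9 genes, which was noticed after the values were seen and was not tested. Itgam was highest in replicate 3 of its group in 4 of 4 groups, and Selplg was lowest there in 4 of 4. Itgb2, Itgb1 and Cd44 were highest in replicate 3 in 3 of 4 groups, and Icam1 was lowest in 3 of 4. The labels do not say what a replicate number marks.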
